A study of Mus musculus with 6 samples.

Results

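Retinoic acid synthesis, binding and breakdown were examined through 9 genes, *Crabp1*, *Crabp2*, *Aldh1a1*, *Aldh1a2*, *Aldh1a3*, *Cyp26b1*, *Dhrs3*, *Rarres1* and *Rarb*, of 25043 genes in the RNA-Seq table of a study of *Anp32e*. RefSeq transcripts were matched to gene symbols, and the transcript with the largest mean count stood for its gene. All 9 genes were found, and they had been listed for study with results of these data known. The RNA came from primary mouse embryonic fibroblasts (MEFs), 3 libraries of wild type (WT) cells and 3 of *Anp32e*-/- cells, which are null for a chaperone that removes the histone variant H2A.Z from chromatin. Both were grown in the same serum-containing medium at low passage. The MEFs were a gift of another laboratory, and it is not stated whether the 3 cultures of a genotype came from separate embryos. The values used here are the authors' means of normalized counts over all 6 libraries, so each level belongs to both genotypes together, with no SD, and no level could be assigned to WT or *Anp32e*-/- cells. The deposited columns that compare the genotypes are the authors' own results and were not used. No difference between WT and *Anp32e*-/- MEFs is therefore reported.

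Retinoic acid is made from vitamin A in a pair of oxidation steps. Retinol is first oxidized to retinal by enzymes such as RDH10, a step that DHRS3 reverses, and retinal is then oxidized irreversibly to retinoic acid by ALDH1A1, ALDH1A2 or ALDH1A3. CRABP1 and CRABP2 bind retinoic acid in the cytoplasm, and enzymes of the CYP26 family degrade it. In the nucleus it binds retinoic acid receptors (RARs), which pair with RXRs on direct repeats of a short half-site, and *Rarb*, *Cyp26a1* and *Dhrs3* are well-known targets of this pathway. In embryos the signal takes part in patterning of the body axis and limbs.

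The response element of *Rarb* is shown first, because it is a sequence through which a gene of this group can read the product of the others. The half-site was taken as AGGTCA or as a variant of it, which could be AGTTCA and equally GGTTCA, with GGGTCA as the last form allowed. A direct repeat of any of these with 5 bases between was searched on both strands, in windows from 250 bases before to 50 bases after each start of transcription (RefSeq, GRCm38.p6). Such a repeat was present in 32 of 32851 windows, or 0.0974%. The table of windows held 7 of the 9 genes, with 10 windows, and *Rarb* alone among these had the repeat. *Rarb* is a well-known target, and the forms allowed include both half-sites of its repeat, so this match was no new find. Of the 30 genes of a wider retinoid list that had a window, *Cyp26a1*, which encodes another retinoic acid hydroxylase, was the other one with it. In the following lines, the half-sites are in capitals and 5 bases are given on either side.
*Rarb* site: ggaagGGTTCAccgaaAGTTCActcgc
*Cyp26a1* site: aaattAGTTCAcccaaAGTTCAtcttt
The *Rarb* repeat lies on chromosome 14 from 16575513 to 16575529, from 53 to 37 bases before the start of its window, on the strand of the gene. The gene reads on the minus strand and runs to 17082331, so this start lies within it. No window at a start farther upstream was available for *Rarb*. The *Cyp26a1* repeat lies on chromosome 19 from 37697776 to 37697792, from 32 to 16 bases before the start, and reads on the opposite strand. Repeats with 2 bases between, present in 0.268% of windows, and with 1 base between, present in 0.222%, were not found in the 10 windows of the 7 genes. *Crabp2* and *Aldh1a3* had no window and were not searched. The windows are short, and no match says only that these letters are not in them.

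The upstream sequences of *Rarb* and *Crabp1* are given whole. The first holds the response element, and the second holds the most GGGCGG sites among members with a window. The first is chr14:16575477-16575726 on the minus strand, with the response element in capitals, and the second is chr9:54764498-54764747 on the plus strand, with GGGCGG and its reverse complement in capitals. GGGCGG is the core that SP family factors bind.
*Rarb* upstream: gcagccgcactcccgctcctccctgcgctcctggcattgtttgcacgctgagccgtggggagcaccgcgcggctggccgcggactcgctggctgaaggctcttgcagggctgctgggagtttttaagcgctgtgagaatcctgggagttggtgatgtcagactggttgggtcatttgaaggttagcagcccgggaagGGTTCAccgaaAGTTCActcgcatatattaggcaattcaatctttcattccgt
*Crabp1* upstream: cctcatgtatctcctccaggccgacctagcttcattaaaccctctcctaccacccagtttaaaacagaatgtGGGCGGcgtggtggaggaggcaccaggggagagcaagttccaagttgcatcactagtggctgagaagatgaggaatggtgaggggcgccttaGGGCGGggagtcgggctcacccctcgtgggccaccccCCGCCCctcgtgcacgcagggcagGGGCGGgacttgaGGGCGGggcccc
*Crabp1* held 5 such sites, and *Cyp26b1* and *Rarres1* held GGGCGG as well. That is 3 of the 10 windows of members, near the 35.7% of all windows with at least 1. CCAAT, the core of NF-Y sites, was present for *Aldh1a1*, *Aldh1a2* and *Dhrs3*, in 4 of the 10 windows of members, near the 37.4% of all windows. TATAAA was found for *Cyp26b1* alone, from 139 to 134 bases before the start, against 13.6% of windows. In the 250 bases before the start, GC content was 77.6% for *Aldh1a2*, 63.6% for *Crabp1* and 58.0% for *Rarb*, and 42.8% and 46.4% for the windows of *Aldh1a1*, beside a median of 52.4% over all promoters. The observed over expected ratio of CpG was 1.07 for *Aldh1a2* and 0.767 for *Rarb*, and 0.0743 in the second window of *Aldh1a1*, beside a median of 0.373. None of the motifs searched was common to all members with a window, and their GC contents lay on both sides of the median.

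The 9 genes spanned a wide range of levels. On the scale of the authors' mean normalized count per kilobase of transcript, the order was *Crabp1* (5268), *Crabp2* (2489), *Dhrs3* (466.7), *Aldh1a1* (446.5), *Aldh1a3* (150.8), *Rarres1* (138.8), *Cyp26b1* (117.3), *Aldh1a2* (78.2) and *Rarb* (12.3). The first was 428-fold above the last. The median over the 18732 genes with reads and a known transcript length was 146 per kilobase. *Crabp1*, *Crabp2*, *Dhrs3* and *Aldh1a1* lay well above it, *Aldh1a3*, *Rarres1* and *Cyp26b1* near it, and *Aldh1a2* and *Rarb* below. Without SD between libraries the neighbours in this order could not be tested, and those closest together were *Dhrs3* and *Aldh1a1* (ratio 1.05), *Aldh1a3* and *Rarres1* (1.09) and *Rarres1* and *Cyp26b1* (1.18). Bulk RNA cannot tell fewer cells that express a gene from less of its RNA per cell.

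**Figure D1:**
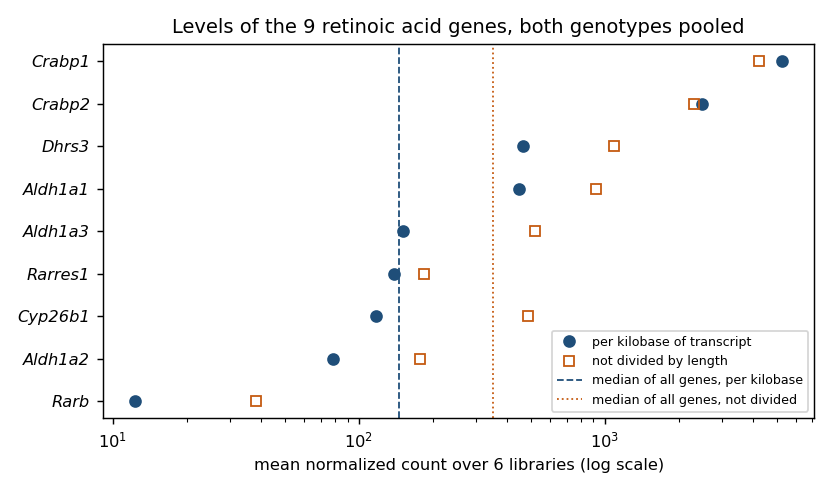
Authors' mean normalized count over 6 libraries (log axis, both genotypes pooled, no error available) for each of the 9 genes, per kilobase of transcript (filled circles) and not divided by length (open squares), with the median of all genes on each scale as a line. *Crabp1* and *Crabp2* stand apart at 5268 and 2489 per kilobase, and *Rarb* is lowest at 12.3.

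In the first step of synthesis, *Dhrs3*, which encodes the reductase that returns retinal to retinol, had a mean of 1092 normalized counts. It lies on chromosome 4 of GRCm38 from 144892534 to 144928209. Its mean rested on 5953 to 7407 reads in the 6 libraries together, which leaves a counting error of at most 1.3%. *Rdh10*, whose product catalyses the opposite reaction in embryos, had a mean of 1161. Per kilobase of transcript the reductase was the higher, with 466.7 against 323.7 for *Rdh10*. Of the 9 genes listed for oxidation and reduction of retinol and retinal, 6 had a mean of at least 10 normalized counts. Of all genes, 56.9% had such a mean. *Bco1* and *Rdh16* were listed at 0.

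Upstream of these enzymes, genes for retinol uptake and storage were at low levels. Of the 5 genes examined, *Rbp4*, the carrier of retinol in blood, had the highest mean, 10.6 normalized counts. The retinol transporter gene *Stra6* had 2.94, and *Lrat*, whose enzyme stores retinol as esters, was listed at 0. All 5 lay below each of the 4 genes *Dhrs3*, *Rdh10*, *Rdh11* and *Dhrs4* of the conversion steps, on both the mean and the per-kilobase scale. Other genes listed for these steps went the other way. *Rdh1*, with a mean of 1.46, and *Rdh16* and *Bco1*, listed at 0, lay below *Rbp4* and *Stra6*.

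All 3 retinaldehyde dehydrogenases that make retinoic acid had reads. *Aldh1a1*, on chromosome 19 from 20492583 to 20643463, had a mean of 918.2 normalized counts, from 5007 to 6230 reads. *Aldh1a3*, on chromosome 7 from 66390892 to 66427477, had a mean of 519.2, and *Aldh1a2*, the main enzyme of the early embryonic trunk, on chromosome 9 from 71215789 to 71296243, had a mean of 177.0. Per kilobase of transcript, *Aldh1a1* was 2.96-fold above *Aldh1a3*, and *Aldh1a3* was 1.93-fold above *Aldh1a2*. By mean normalized count, *Aldh1a1* lay above 61.2% and *Aldh1a2* above 44.2% of the 19275 genes with reads. The related gene *Aldh8a1* had a mean of 5.05.

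*Crabp1* and *Crabp2* were the members with the most reads. CRABP2 delivers retinoic acid to receptors in the nucleus, whereas CRABP1 holds it in the cytoplasm. *Crabp1*, on chromosome 9 from 54764748 to 54773110, had a mean of 4225 normalized counts, and *Crabp2*, on chromosome 3 from 87948693 to 87953372, had 2317. These means rested on at least 23042 and 12637 reads, and counting error was under 1% for each, at 0.659% and 0.89%. Per kilobase the 2 genes lay above 95.8% and 91.0% of genes, and *Crabp1* was 2.12-fold above *Crabp2*. Both transcripts are short, with 802 and 931 bases, so division by length raised their rank. *Fabp5*, which encodes a fatty acid binding protein that can also carry retinoic acid, was higher still, with 8207 per kilobase, or 1.56-fold above *Crabp1*.

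Of the 3 genes of breakdown, *Cyp26b1* had by far the most reads. This gene, which encodes a retinoic acid hydroxylase known from the limb bud and skeleton, lies on chromosome 6 from 84571414 to 84593908 and had a mean of 487.5 normalized counts, from 2658 to 3308 reads. The means of its relatives were 5.05 for *Cyp26a1* and 5.38 for *Cyp26c1*, each from 31 reads in all libraries. Per kilobase the values were 117.3 for *Cyp26b1*, 2.82 for *Cyp26a1* and 3.08 for *Cyp26c1*. *Cyp26a1*, one of the pair of genes with the direct repeat shown above, lay above 21.7% of genes with reads by mean.

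**Figure D2:**
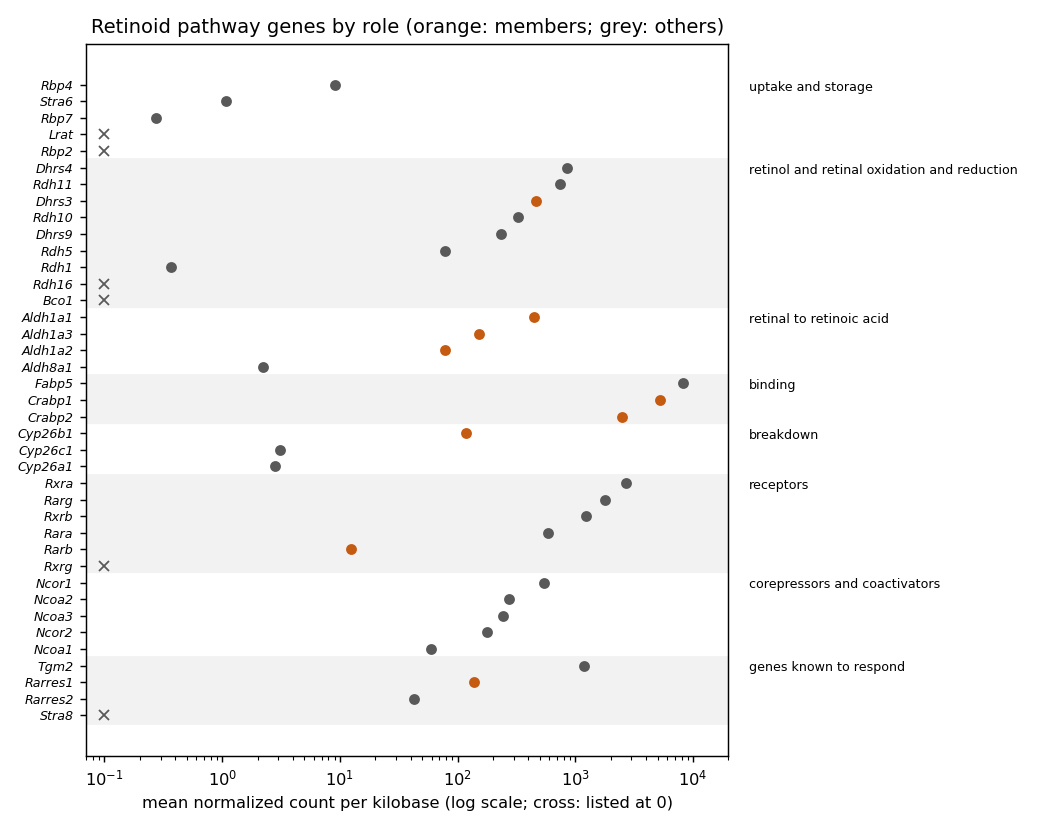
Authors' mean normalized count per kilobase (log axis, both genotypes pooled, no error available) for 39 genes of the retinoid list, grouped by role, with the 9 members in orange and genes listed at 0 as crosses. The binding proteins and 4 of the 6 receptors lie high, while the uptake and storage genes shown, *Rarb*, *Cyp26a1* and *Cyp26c1* lie low.

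Among the RARs, *Rarb* stood out by its low level. It lies on chromosome 14 from 16430839 to 17082331, and its mean of 38.3 normalized counts lay above 34.3% of genes with reads. *Rara* and *Rarg*, the other receptor genes of the family, had means of 1986 and 5323. Per kilobase of transcript, *Rara* was 47.6-fold and *Rarg* 146-fold above *Rarb*. The partner receptors *Rxra* and *Rxrb* had 2718 and 1230 per kilobase, and *Rxrg* was listed at 0. All 5 listed corepressor and coactivator genes had a mean of at least 10, from 439.6 to 4787 normalized counts, beside 56.9% of all genes.

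*Rarres1*, known as a gene that a retinoid induces in skin, lies on chromosome 3 from 67478886 to 67515523. Its mean was 183.9 normalized counts, from 1003 to 1248 reads, with a counting error of at most 3.16%. Other listed genes known to respond had means of 4298 for *Tgm2* and 33.6 for *Rarres2*, and *Stra8*, a gene of germ cells, was listed at 0. Across 39 genes of the retinoid list, 27 had a mean of at least 10 normalized counts, of which 9 were the members and 18 were among the other 30 genes. Those 18 are 60% of the other genes, near the 56.9% of all 25043 genes with such a mean. The share among members describes how they were chosen.

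The table lists several transcripts for 5 of the members, and the same reads were counted on more than 1 of them. The 5 transcripts of *Aldh1a1* ranged from 916.6 to 918.2 normalized counts. Since 1 read of a library adds between 0.147 and 0.183 to a mean, these differences could be turned into reads. This takes the reads of the lower transcript as part of those of the higher. On that basis the highest and lowest *Aldh1a1* transcripts differed by 10 reads from 3 libraries. Those of *Cyp26b1* differed by 13 reads. The assumption failed for *Rarb*, whose lowest transcripts had 35 reads in a library where the highest had 34. The 2 transcripts of *Crabp1* had 4225 and 4121 normalized counts, or 2.46% apart. The 4 transcripts of *Rarb* ranged from 36.3 to 38.3, or 5.19% of the highest. *Dhrs3* had the widest spread, from 893.2 to 1092 over 6 transcripts, or 18.2% of the highest. The transcripts of a gene are thus no separate measurements. For *Aldh1a1*, *Cyp26b1* and *Rarb* the median over transcripts stayed within the counting interval of the highest, whereas for *Dhrs3* it did not. For *Crabp1* the median of 4173 lay just inside that interval, 4171 to 4280, and the lower transcript at 4121 lay outside. The interval covers counting error only and is narrower for genes with more reads. It serves here as a yardstick and does not measure how far transcripts of a gene differ.

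**Figure D3:**
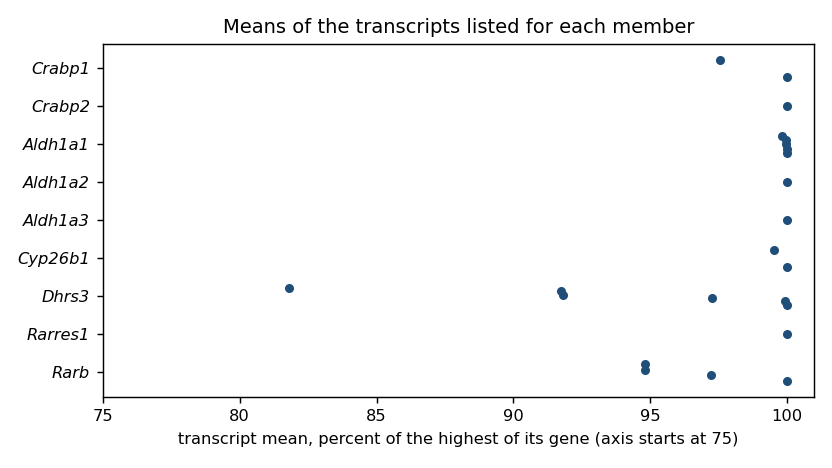
Mean normalized count of every transcript listed for each member, as a percentage of the highest of its gene (axis from 75, no error available). Transcripts of *Aldh1a1* and *Cyp26b1* nearly coincide, those of *Crabp1* lie 2.46% apart, those of *Rarb* spread over 5.19%, and those of *Dhrs3* spread over 18.2%.

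Sequence shared with other genes could affect a pair of the members. For 7 of the 9, no stretch of 50 bases of the main transcript occurred in a GENCODE transcript of another gene on either strand. In *Aldh1a1*, 7.53% of such stretches also occurred in *Aldh1a7*, a close relative, which had a mean of 168.8 normalized counts, and none of 150 bases did. In *Rarb*, 45.8% of stretches of 150 bases, the length of the reads, occurred in *Top2b* on the opposite strand, since the ends of both genes overlap by 1793 exonic bases. *Top2b* had a mean of 4964 normalized counts. The library kit marks strand, but whether reads were counted by strand is not given in the sources used here. The part of *Top2b* reads in the count of *Rarb* was not tested.

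The mean of *Rarb* was low enough to be split into whole reads of single libraries. The 6 libraries found this way carry no label, are named a to f here, and belong to no group. The transcript with the highest mean had 47, 48, 32, 35, 34 and 36 reads in libraries a to f, or 232 in all. After division by size factors these were 41.6, 45.6, 31.1, 35.5, 36.3 and 39.6 normalized counts, with a median of 38.0. The highest library was 1.47-fold above the lowest. Its 95% Poisson interval, which covers counting error only, ran from 33.7 to 60.5, and that of the lowest ran from 21.3 to 44.0. Differences between these libraries were not tested. The means of the other 8 members were too high for a unique split.

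**Figure D4:**
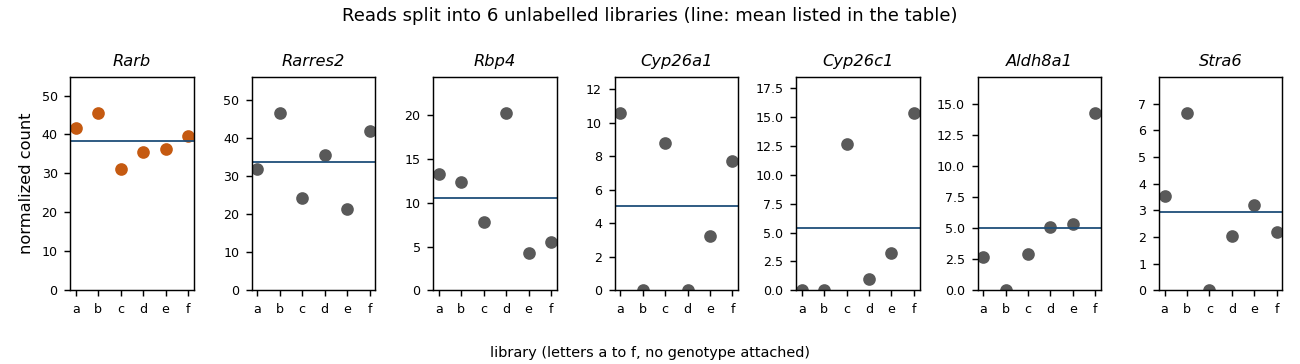
Normalized counts of *Rarb* and of 6 other genes of the retinoid list in 6 unlabelled libraries (points, linear axes from 0), recovered from the authors' means, which are drawn as lines. *Rarb* lies between 31.1 and 45.6 in all libraries, whereas *Cyp26a1* and *Cyp26c1* have no read in 2 libraries each.

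Over the table as a whole, the fibroblast label was checked on markers. Of 10 fibroblast markers, 9 had a mean of at least 10 normalized counts, from 143.8 for *Dcn* to 330700 for *Vim*, and *Lum* had 1.33. All 4 mesothelial markers had a mean of at least 10, from 300.3 for *Wt1* to 7400 for *Krt19*, and 4 of 5 epithelial markers did, with *Krt18* at 1106 and *Epcam* at 5.12. *Krt19* is in both of these lists. Of the macrophage markers 2 of 4 reached 10, with *Cd68* at 257.2 and *Ptprc* at 3.09, of the endothelial markers 2 of 4, with *Kdr* at 2958 and *Pecam1* at 4.47, and of the skeletal muscle markers 2 of 4, with *Acta1* at 4711 and *Myod1* listed at 0. None of 4 neural crest and glia markers did. Such a mean was reached by 56.9% of all 25043 genes, so these counts alone do not tell cell types apart. *Aldh1a2* is also known from mesothelial cells of the embryo. The part of such cells in the levels of the members was not tested. The targeted gene, *Anp32e*, had a mean of 2190 over both genotypes, which does not check the labels.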

How the data were processed

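RNA was sequenced from 3 WT and 3 *Anp32e*-/- cultures of MEFs (TruSeq Stranded Total RNA). The authors used RNA-STAR for alignment to mm10, featureCounts for counts per RefSeq transcript, and DESeq2. The deposited signal column is the authors' mean, over the 6 libraries, of counts scaled by size factor. The other 5 columns hold the authors' own comparison of the genotypes (log2 fold change, its standard error, statistic, p-value and adjusted p-value) and were not used. A test on counts had been planned, but without values per library none was run.

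Of 42361 transcripts, 42203 were matched to genes with RefSeq (GRCm38.p6). Lengths were those of paired GENCODE transcripts, found for 83.3%, and for *Aldh1a1* and *Dhrs3* the highest transcript with a length was used. The 6 lowest distinct means, which are those of single reads, gave size factors from 0.909 to 1.13 and bounds on the reads behind a mean. Low means were split into whole reads where fewer than 0.05 chance solutions were expected, a limit chosen after *Rarb* missed 0.01. Of 300 means between 1 and 10, 300 had exactly 1 solution, and 54 of 54 simulated means were recovered. The mean of *Rarb*, 38.3, lies above the range of those 300, and 0.013 chance solutions were expected for it. The check on 300 means therefore does not cover *Rarb*.

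Members and lists were chosen with earlier results of these data known. Of the retinoid list, 1 gene is not reported here. The named genes were the 9 members, their families in the retinoid list, genes of retinol uptake and first oxidation, and *Anp32e*. *Top2b*, *Aldh1a7*, *Rbp7*, *Rdh1*, *Rdh11*, *Dhrs4*, *Tgm2*, *Rarres2*, *Stra8*, *Bco1*, *Rdh16* and the markers were named after their values were seen. Python 3.11.15, numpy 2.4.6, pandas 2.3.3, scipy 1.17.1 and matplotlib 3.10.9 were used.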

Additional observations from a re-analysis of the deposited data

How the results depend on the processing

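With the median over transcripts in place of the highest transcript, the mean of *Dhrs3* moved to 1032 normalized counts, outside the counting interval of its main value, because its transcripts differ. The other 17 alternative means and 9 alternative values per kilobase stayed within that interval. Many of these could not differ, because *Crabp2*, *Aldh1a2*, *Aldh1a3* and *Rarres1* have 1 transcript each. The longest transcript of *Crabp1* and of *Rarb* also gave the main mean. Per kilobase only *Cyp26b1* changed, from 117.3 to 116.4. For *Dhrs3* the longest transcript with a length was the main one, so its value could not change. A shorter *Dhrs3* transcript of 1349 bases, with 893.2 normalized counts, was not tried and would give a higher value per kilobase. At a mean of at least 50 the number of genes of the retinoid list was 24 and that of members 8. The share of genes below a member moved by -5.46 to 13.9 percentage points with means per kilobase, by -23.2 to -4.68 when only genes with a mean of at least 10 were ranked, by -8.2 to -1.66 at a mean of at least 1 and by -0.276 to -0.107 without X and Y genes. The split of *Rarb* was the same with a tolerance 10 times wider. No paired analysis was possible because the table carries no values per library. For the same reason leaving out replicates, other normalizations and other tools were not run. The depth of libraries is known only as size factors, from 0.909 to 1.13, that could not be assigned to samples. The means carry no spread between cultures.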

Other observations

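Of the genes of the retinoid list, 9 could be split into reads of the unlabelled libraries, and the 8 of them that are not members are given here as values. *Cyp26c1*, which encodes a retinoic acid hydroxylase, had 0, 0, 13, 1, 3 and 14 reads in libraries a to f, so that 27 of its 31 reads came from 2 libraries. *Cyp26a1* had 12, 0, 9, 0, 3 and 7 reads, with no read in 2 libraries. *Rbp4*, the retinol carrier, had 15, 13, 8, 20, 4 and 5 reads, from 4.28 to 20.3 normalized counts. Another transcript of *Rbp4* had 1 read in place of 5 in library f, or 1.1 normalized counts, so this range depends on the transcript. *Rarres2*, a secreted protein induced by retinoids, had 36, 49, 25, 35, 20 and 38 reads, a 2.18-fold range. *Aldh8a1* had 3, 0, 3, 5, 5 and 13 reads, and *Stra6* had 4, 7, 0, 2, 3 and 2. *Rdh1* had 4, 2, 0, 0, 0 and 3 reads, and *Rbp7* a single read, in library d. The libraries have no genotype attached, and no grouping of them was tested.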
